A study of Macaca fascicularis with 3 samples.

Results

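The 5p strands of the miR-17 seed family were described in small RNA libraries of kidney cortex from 3 cynomolgus monkeys (Macaca fascicularis). They were chosen by name alone, as the listed mature miRNAs with the stem miR-17, miR-20a, miR-20b, miR-93, miR-106a or miR-106b and either the 5p suffix or none. This gave 6 of the 432 listed mature miRNAs, mfa-miR-106b-5p, mfa-miR-17-5p, mfa-miR-20a-5p, mfa-miR-106a-5p, mfa-miR-20b-5p and mfa-miR-93-5p, in which mfa stands for the species. The prefix is left out from here on. The animals were untreated, aged 2 to 3 years, and gave a single library each, so the series holds 1 group and the comparisons are between miRNAs and between animals. The labels used here give no strain, sex or batch, and a difference between animals cannot be told apart from a difference between library preparations.

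A microRNA (miRNA) is cut as a duplex from a hairpin precursor, and the strand that is loaded into Argonaute, the guide, pairs through its seed, bases 2 to 8, with sites in messenger RNAs and lowers their output. The 6 members are known for a shared seed and are encoded in a set of related clusters. The miR-17 cluster, which is activated by MYC and is known as oncogenic for its amplification in lymphoma, encodes miR-17 and miR-20a. The miR-106b cluster lies in an intron of MCM7, a subunit of the replication helicase, and encodes miR-106b and miR-93. The miR-106a cluster on the X chromosome encodes miR-106a and miR-20b. Known targets of the seed include the cell cycle inhibitor CDKN1A, the E2F1 transcription factor and the TGF-beta receptor TGFBR2, and in the mouse the miR-17 cluster is required in nephron progenitors for normal kidney development.

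Listed miRNAs drew 4305977 counts in animal 1, 4707892 in animal 2 and 3957188 in animal 3, and levels are given as counts per 1000000 of these (CPM). A renal list of miR-204, miR-194, miR-192 and miR-215, which are known as enriched in kidney, matched 5 names and took 5.71%, 6.20% and 5.31% of the counts in animals 1, 2 and 3. Blood miRNAs were also present. The leucocyte list, which holds miR-142, miR-150 and miR-223, took 0.162%, 0.173% and 0.152% of the counts, and the erythroid list, which holds miR-451, miR-144 and miR-486, took 0.502%, 0.437% and 0.576%. Animal 3 stood apart somewhat, with Spearman's rho of 0.937 and 0.944 to animals 1 and 2 across 391 miRNAs, which are not independent replicates, beside 0.983 between those animals. Fewer cells of a type and less of a miRNA per cell cannot be told apart in these bulk samples.

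Together the 6 members made up a small part of the miRNA pool of the cortex. They had 26420, 32891 and 24347 counts in animals 1, 2 and 3. These were 0.614% of the listed counts in animal 1 (0.606 to 0.621, Wilson 95% limits), 0.699% in animal 2 (limits 0.691 and 0.706) and 0.615% in animal 3 (limits 0.608 and 0.623), with a mean of 0.642% ± 0.0486 (SD, n = 3), or 0.656% without animal 3. By share of the listed counts, animal 2 was above the others beyond counting error, and the intervals of animals 1 and 3 overlapped. This standing depends on the scaling. Library sizes were also scaled by the trimmed mean of M values, as described below. The centred log2 values of the sum were then -0.08, 0.05 and 0.03 in animals 1, 2 and 3, with animals 2 and 3 close together. As shares, the summed renal and leucocyte lists were also highest in animal 2 and the summed erythroid list was lowest there. The lists' members did not move together. miR-204-5p, with 252235 of the 291804 renal counts in animal 2, was highest there, while miR-194-5p at 4898, 4437 and 5250 CPM and miR-192-5p at 4680, 3837 and 4359 CPM were lowest there. In the leucocyte list miR-150-5p was lowest in animal 2, at 515, 457 and 635 CPM, and miR-142-3p, at 913, 975 and 691 CPM, was highest there. In the erythroid list miR-451, at 4369, 3900 and 5386 CPM, was lowest in animal 2, and miR-486-5p, at 20.7, 42.7 and 47.3 CPM, was not. Of the other list members, miR-223, at 141, 245 and 160 CPM, and miR-204-3p, at 101, 112 and 4.80 CPM, were highest in animal 2. So was miR-486-3p, at 2.79, 6.80 and 6.06 CPM. Highest in animal 1 were miR-144, at 633, 424 and 326 CPM, and miR-215-5p, at 24.2, 17.8 and 14.7 CPM. So was miR-142-5p, at 52.0, 49.5 and 31.1 CPM. The part of cell mixture in the family's level was not tested. Intervals here cover counting error of reads without molecular identifiers only.

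The members from the miR-106b cluster were the highest and the lowest of the family. miR-106b-5p had 12796, 14767 and 9972 counts in animals 1, 2 and 3, or 2972, 3137 and 2520 CPM, and averaged 2876 CPM ± 319 (SD, n = 3). It was the most abundant member in every animal and held rank 51, 50 and 52 among all listed miRNAs. By mean CPM its neighbours in the order of all miRNAs were let-7d at 2887 CPM ± 420 and miR-342-3p at 2874 CPM ± 1502, and the 3 means lay within 1 SD of each other.

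miR-93-5p, encoded beside miR-106b, had 21, 53 and 15 counts in animals 1, 2 and 3. In CPM it was at 4.88 (3.19 to 7.46, Wilson 95% limits) in animal 1, 11.3 (limits 8.61 and 14.7) in animal 2 and 3.79 (limits 2.30 and 6.25) in animal 3, a mean of 6.64 CPM ± 4.03 (SD, n = 3). As listed, it was the least abundant member in every animal, at rank 342, 301 and 352. Only reads with 0 mismatches to the authors' reference entry were counted, and that entry was not examined here, so whether it matches the mature miRNA in these animals was not tested and the values of miR-93-5p are those of the listed entry. Within the same libraries miR-106b-5p exceeded it 609-fold in animal 1 (interval of the count ratio 398 to 932), 279-fold in animal 2 (limits 213 and 365) and 665-fold in animal 3 (limits 403 and 1097). The interval of animal 2 lay below those of the other animals.

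The members from the miR-17 cluster followed miR-106b-5p. miR-17-5p, which gives the family its name, had 6089, 7953 and 6731 counts in animals 1, 2 and 3, or 1414, 1689 and 1701 CPM, and averaged 1601 CPM ± 162 (SD, n = 3). miR-20a-5p, its close relative from the same primary transcript, had 3769, 4867 and 2885 counts, or 875, 1034 and 729 CPM, and averaged 879 CPM ± 152 (SD, n = 3). miR-17-5p exceeded miR-20a-5p 1.62-fold in animal 1, 1.63-fold in animal 2 and 2.33-fold in animal 3. Animals 1 and 2 had count-ratio intervals that overlapped, 1.55 to 1.68 and 1.58 to 1.69, and animal 3 lay above both with 2.23 to 2.44.

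The members from the X-linked miR-106a cluster were lower. miR-106a-5p, whose sequence is close to that of miR-17-5p, had 2342, 3525 and 2845 counts in animals 1, 2 and 3, or 544, 749 and 719 CPM, and averaged 671 CPM ± 111 (SD, n = 3). miR-20b-5p, the counterpart of miR-20a in this cluster, had 1403, 1726 and 1899 counts, or 326, 367 and 480 CPM, and averaged 391 CPM ± 79.8 (SD, n = 3). Both were lowest in animal 1, and miR-20b-5p was highest in animal 3. The mature sequences of these 5 miRNAs and of miR-93-5p differ from each other by few bases, and the treatment of reads that match several names was not stated, so the division of counts between members is uncertain.

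**Figure D1:**
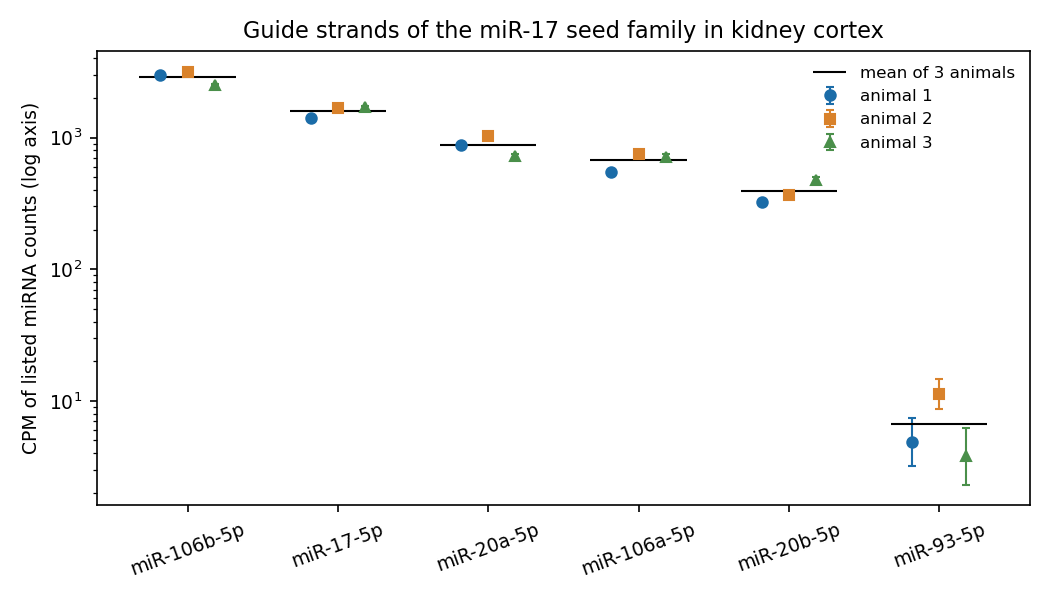
CPM of each member in each animal on a log axis. Points are single libraries with Wilson 95% confidence intervals of the counts, and black lines are means over 3 animals; 5 members lie between 326 and 3137 CPM and miR-93-5p lies between 3.79 and 11.3 CPM.

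The order of the means was miR-106b-5p, miR-17-5p, miR-20a-5p, miR-106a-5p, miR-20b-5p and miR-93-5p, and all 3 animals showed it. The 5 neighbouring pairs were compared within animals on log2(CPM + 1). miR-106b-5p lay above miR-17-5p by 0.84 ± 0.26 (SD, n = 3 animals) and by 0.98 without animal 3. An exact permutation of the signs over animals gave a two-sided p of 0.25, the smallest that this test can give with 3 animals. The other neighbouring pairs had the same exact permutation p, and the value adjusted over the 5 pairs was 0.25, so no pair could pass a threshold of 0.05. The closest pair was miR-20a-5p over miR-106a-5p, with a mean difference of 0.39 ± 0.34 and differences of 0.69, 0.46 and 0.02 in animals 1, 2 and 3. In animal 3 the ratio of their counts was 1.01 with an interval from 0.963 to 1.07, so the order of this pair was not resolved in that library. miR-20b-5p lay above miR-93-5p by 5.78 ± 0.87, the widest step of the 5.

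The make-up of the family differed between the animals, and shares within the family need no scaling between libraries. miR-106b-5p made up 48.4% of the family's counts in animal 1 (47.8 to 49.0, Wilson 95% limits), 44.9% in animal 2 (limits 44.4 and 45.4) and 41.0% in animal 3 (limits 40.3 and 41.6), a mean of 44.8% ± 3.74 (SD, n = 3), or 46.7% without animal 3. miR-17-5p made up 23.0%, 24.2% and 27.6% in animals 1, 2 and 3, and its share was highest in animal 3. The share of miR-20a-5p was 14.3%, 14.8% and 11.8%, lowest in animal 3. For miR-106a-5p the shares were 8.86%, 10.7% and 11.7%, and for miR-20b-5p 5.31%, 5.25% and 7.80%. miR-93-5p took 0.0795%, 0.161% and 0.0616% of the family.

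Summed by cluster, the miR-106b cluster gave 44.9% ± 3.75 (SD, n = 3) of the family's counts, nearly all of it miR-106b-5p, and 46.8% without animal 3. The miR-17 cluster gave 37.3%, 39.0% and 39.5% in animals 1, 2 and 3, a mean of 38.6% ± 1.14, or 38.1% without animal 3. The miR-106a cluster gave 14.2%, 16.0% and 19.5%, a mean of 16.5% ± 2.70, or 15.1% without animal 3. The order of the 3 clusters was the same in each animal, and the gap between the sums of the miR-106b and miR-17 clusters was smallest in animal 3, at 41.0% against 39.5%, where the intervals, 40.4 to 41.6 and 38.9 to 40.1, did not overlap.

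**Figure D2:**
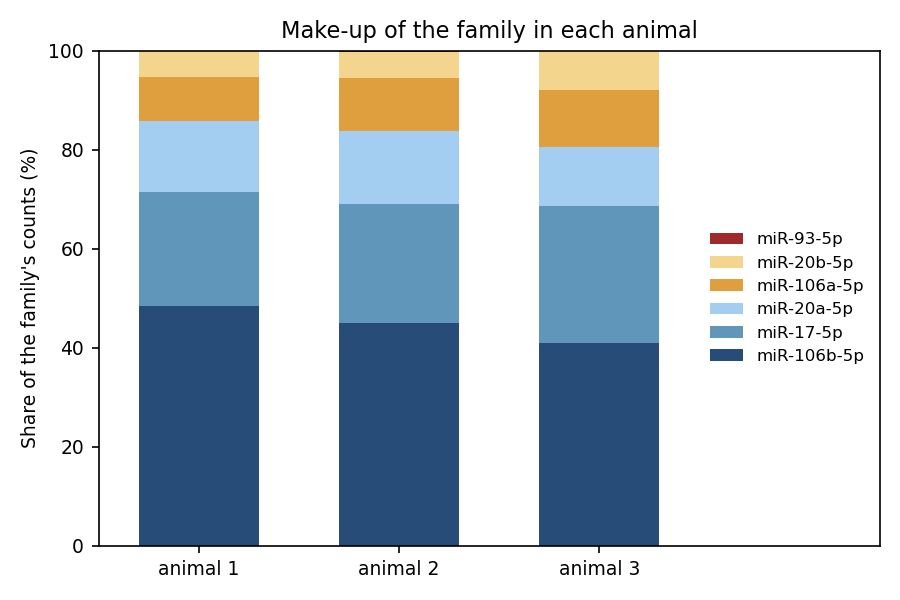
Stacked bars of each member's share of the family's counts, in percent, for each animal. miR-106b-5p is the largest part in each bar, from 41.0% to 48.4%, and miR-93-5p, at most 0.161%, is too thin to be seen.

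Differences of single members between animals were then set against counting error by a chi-square homogeneity test on library sizes scaled by the trimmed mean of M values (TMM), Benjamini-Hochberg adjusted over the 391 miRNAs that averaged 10 counts or more. All 6 members passed the adjusted threshold of 0.05. Over all 391 miRNAs the share called was 80.6%, so the call at this depth did not set the members apart. The adjusted chi-square p was 1.14e-16 for miR-106b-5p, 2.91e-46 for miR-17-5p, 2.08e-46 for miR-20b-5p and 0.000218 for miR-93-5p. Without animal 3 the call of miR-106b-5p was lost, with an adjusted chi-square p of 0.329 over the 2 remaining libraries, and without animal 2 the call of miR-93-5p was lost, with 0.743. Other calls came near the threshold. The adjusted chi-square p of miR-20b-5p was 0.0498 without animal 3, and that of miR-20a-5p was 0.0243 without animal 2.

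By size the differences were mostly small. On TMM-scaled CPM the highest animal exceeded the lowest 1.11-fold for miR-106b-5p, 1.27-fold for miR-20a-5p, 1.29-fold for miR-17-5p, 1.42-fold for miR-106a-5p and 1.58-fold for miR-20b-5p. Only miR-93-5p spanned more than 2-fold, at 2.66-fold, which is 1 of 6 members beside 39.9% of the 391 miRNAs. It did not do so without animal 2, where it was highest. The SD of log2(TMM-scaled CPM + 1) ranged from 0.08 for miR-106b-5p to 0.65 for miR-93-5p, with a median of 0.23 over the members and 0.38 over the 391 miRNAs. The 391 include miRNAs with few counts. Over the 259 that averaged 100 counts or more, among them all members but miR-93-5p, the median was 0.34 and 82 spanned more than 2-fold. Both ends moved when a library was left out. The SD of miR-93-5p was 0.11 without animal 2, where miR-20b-5p had the highest at 0.52, and the SD of miR-106b-5p was 0.015 without animal 3 and 0.042 without animal 2. miR-106b-5p was not the lowest in every setting. Without animal 1 it had 0.11 and miR-106a-5p had 0.073. With library totals in place of TMM it had 0.16 and miR-17-5p had 0.15.

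The members did not move in 1 direction between animals. On TMM-scaled CPM, miR-17-5p, miR-106a-5p and miR-20b-5p were highest in animal 3, with log2 deviations of 0.27, 0.30 and 0.60 from the mean of the other animals. miR-106b-5p, miR-20a-5p and miR-93-5p were lowest in animal 3, at -0.14, -0.25 and -0.71. These signs were the same with DESeq2 size factors and with library totals. With library totals miR-106a-5p was highest in animal 2 and not in animal 3, and with DESeq2 size factors miR-106b-5p was highest in animal 1 and not in animal 2. Scaling by library totals placed the median of the 391 miRNAs at -0.12 and -0.18 on the log2 scale in animal 3 relative to animals 1 and 2. None of the 6 members lay 1 log2 unit or more below the other animals in animal 3, beside 16.9% of the 391 miRNAs. With only 6 members this did not set them apart.

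The opposite arms of the same hairpins, which the choice by name did not use, were listed for all 6 members. In 5 of the 6 hairpins the 5p arm had more counts in every library, beside 52.5% of 122 hairpins. These 122 had both arms listed under 5p and 3p names and averaged 10 counts or more over both arms together. The summed 5p arms took 95.2%, 95.2% and 96.5% of the counts of the 6 hairpins in animals 1, 2 and 3. miR-20b had the highest 5p share, with 10, 16 and 0 counts of miR-20b-3p in animals 1, 2 and 3 beside 1403, 1726 and 1899 of the 5p arm. The 0 counts in animal 3 allow up to 3 counts, or 0.758 CPM.

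The 5p share of the miR-106b hairpin was 98.6%, 98.1% and 99.4% in animals 1, 2 and 3, with 184, 285 and 56 counts of miR-106b-3p. The miR-20a hairpin had 5p shares of 95.3%, 95.8% and 96.1%, and the miR-106a hairpin 92.2%, 95.6% and 94.8%. The lowest of the 5 was miR-17, with 89.4% (88.7 to 90.1, Wilson 95% limits), 90.2% (limits 89.5 and 90.8) and 94.0% (limits 93.4 and 94.5). miR-17-3p, at a mean of 153 CPM ± 39.7 (SD, n = 3), was the most abundant of the opposite arms. The 5p share of miR-17 was above that of the other animals beyond counting error in animal 3.

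The miR-93 hairpin went the other way. miR-93-3p had 46, 112 and 115 counts in animals 1, 2 and 3, and the 5p arm took 31.3% of the hairpin's counts in animal 1 (21.5 to 43.2, Wilson 95% limits), 32.1% in animal 2 (limits 25.5 and 39.6) and 11.5% in animal 3 (limits 7.12 and 18.2). Its mean was 25.0%, and 31.7% without animal 3. Every interval lay below 50%, and the interval of animal 3 lay below those of the other animals. The 3p arm was the higher in every library in 40.2% of the 122 hairpins. The label guide strand was thus not borne out by the counts listed for miR-93-5p, with the same limit on its reference entry as above. Both arms together had 67, 165 and 130 counts, against 12980, 15052 and 10028 for the miR-106b hairpin of the same cluster.

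**Figure D3:**
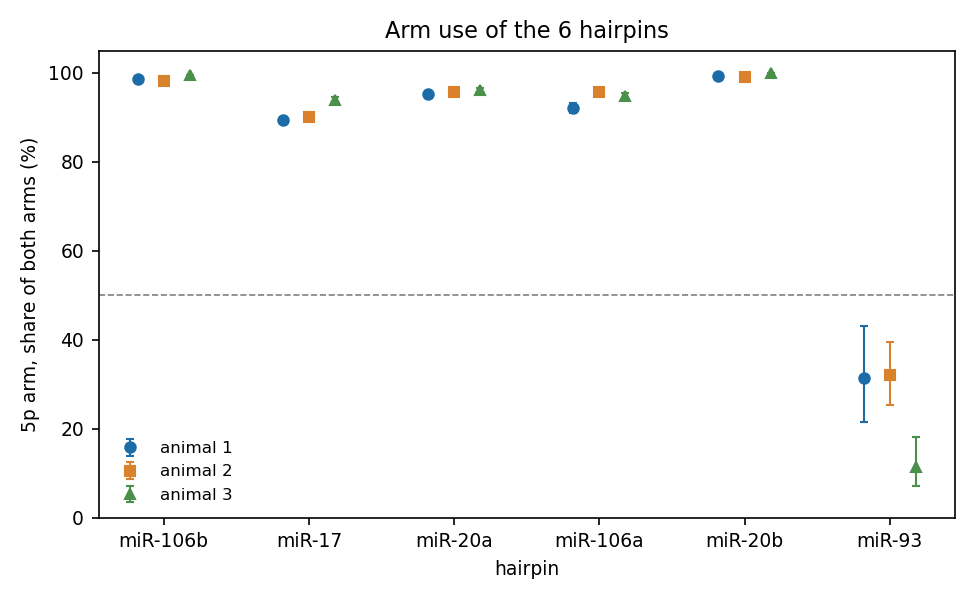
Share of the 5p arm in the summed counts of both arms, in percent, for each hairpin and animal, with Wilson 95% confidence intervals. Points above the dashed line at 50% have more 5p counts; 5 hairpins lie at 89.4% or above and miR-93 lies between 11.5% and 32.1%.

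The opposite arms were set against the other animals in the same way, by log2 deviation on TMM-scaled CPM. In animal 3, miR-106b-3p lay at -1.65, miR-17-3p at -0.56 and miR-20a-3p at -0.44, and miR-20b-3p was the arm with 0 counts. Of the 5 arms that averaged 10 counts or more, 1 lay at least 1 log2 unit lower in animal 3, beside 16.9% of the 391 miRNAs. miR-106a-3p lay at 0.12 and miR-93-3p at 0.95. With library totals miR-106a-3p turned to -0.01, and the other signs were the same under all 3 scalings. The median SD over the 5 opposite arms that averaged 10 counts or more was 0.32, beside 0.23 over the members, and this difference was not tested. The chi-square test called these 5 arms, again beside 80.6% of the 391 miRNAs.

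The other mature miRNAs of the 3 clusters were listed under 7 names. They fall into further seed families. miR-19a and miR-19b carry the miR-19 seed, which is known to carry much of the oncogenic activity of the cluster. Their names, miR-19a-3p and miR-19b, summed to 17894, 20013 and 19582 CPM in animals 1, 2 and 3, which was 2.92, 2.86 and 3.18 times the sum of the 6 members. miR-19b alone was at 17113 CPM ± 1034 (SD, n = 3), rank 17 by mean CPM, and its mature form can come from both the miR-17 and the miR-106a cluster. It exceeded miR-17-5p 11.3-fold, 10.5-fold and 10.4-fold in animals 1, 2 and 3. miR-19a-3p, from the miR-17 cluster, was at 2050 CPM ± 141 (SD, n = 3).

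miR-18a-5p and miR-18b, which have a seed close to that of miR-17, summed to 574, 607 and 480 CPM, or 0.0936, 0.0868 and 0.0780 times the members. miR-18a-5p was at 402 CPM ± 52.9 and miR-18b, from the X-linked cluster, at 152 CPM ± 13.9 (SD, n = 3). The miR-25 seed group of these clusters, miR-25, miR-92a-3p and miR-363-3p, summed to 2015, 1974 and 2314 CPM. miR-92a-3p was at 1400, 1552 and 1819 CPM in animals 1, 2 and 3, and its counts were 0.990, 0.919 and 1.07 times those of miR-17-5p. miR-363-3p had 1788, 1113 and 1134 counts, so that miR-106a-5p, from the same cluster, exceeded it 1.31-fold in animal 1, 3.17-fold in animal 2 and 2.51-fold in animal 3.

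Within the miR-106b cluster, miR-25 was at 199.96, 186 and 208 CPM in animals 1, 2 and 3, a mean of 198 CPM ± 11.1 (SD, n = 3). miR-106b-5p exceeded miR-25 14.9-fold, 16.9-fold and 12.1-fold, and miR-25 in turn exceeded miR-93-5p 41.0-fold, 16.5-fold and 54.9-fold. miR-25 was listed under a single name, which the authors' deposited table pairs with the human 3p arm. Of the 7 other miRNAs of the clusters, the chi-square test called 6 different between libraries, all but miR-18b with an adjusted chi-square p of 0.433. Over all 391 miRNAs the share called was 80.6%, so the call did not set these 7 apart. None of the 7 spanned more than 2-fold, beside 39.9% of the 391. Their median SD on the log2 scale was 0.13, beside 0.38 over the 391 and 0.34 over the 259 that averaged 100 counts or more.

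**Figure D4:**
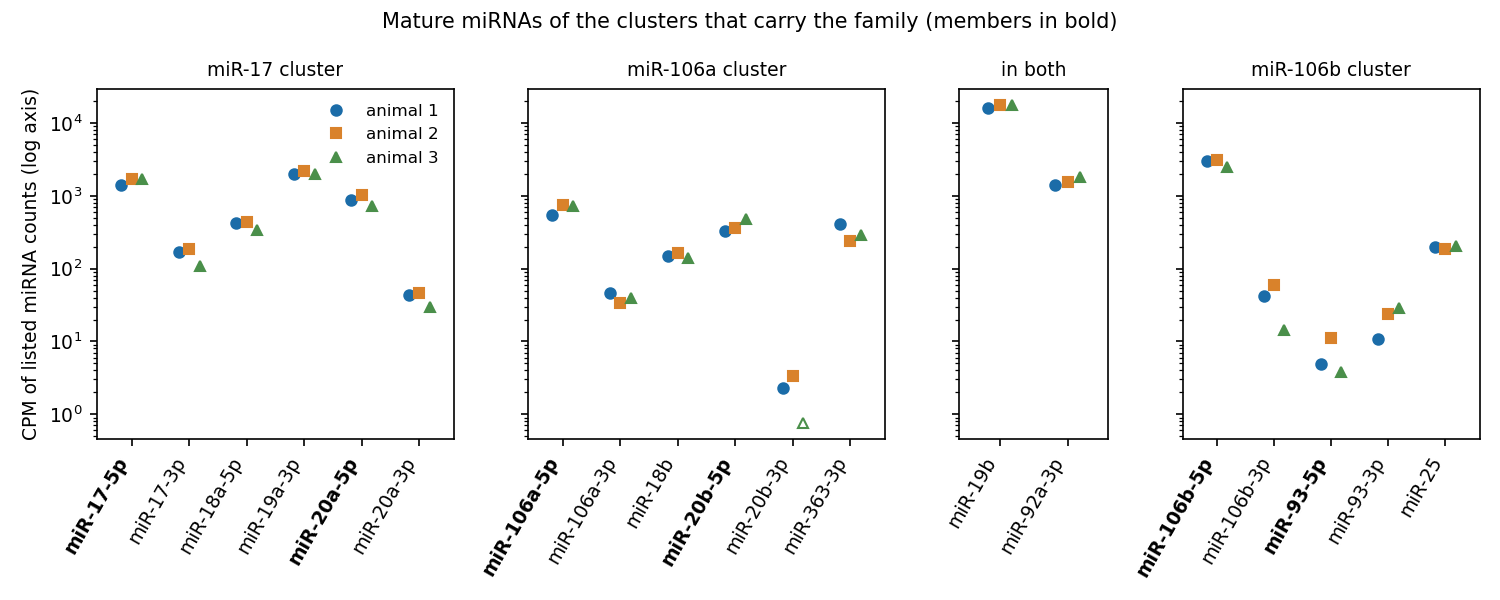
CPM of the mature miRNAs of the 3 clusters on a log axis, 1 point per animal, with the members in bold. miR-19b and miR-92a can arise from both the miR-17 and the miR-106a cluster; the open triangle marks 0 counts of miR-20b-3p in animal 3, drawn at the floor of 0.758 CPM.

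The miRNAs closest to the summed members in their pattern over the 3 animals were ranked by Euclidean distance between centred log2(TMM-scaled CPM + 1) values, among 254 other miRNAs that averaged 100 counts or more. The closest was miR-19a-3p, at a distance of 0.014, followed by miR-340-5p at 0.037 and miR-190a-3p at 0.043. The median distance of the 254 was 0.52. The centred values of the summed members were -0.08, 0.05 and 0.03 in animals 1, 2 and 3, so a small distance here marks miRNAs that varied little between the libraries, and 3 animals give no more than a description. miR-340-5p was at 1007 CPM ± 57.6 and miR-190a-3p at 115 CPM ± 7.39 (SD, n = 3).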

How the data were processed

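Per the labels' protocols, total RNA from frozen kidney cortex was enriched for small RNA and made into barcoded libraries, with no molecular identifiers described. Per the file headers, the authors deposited a raw read count for each mature miRNA, matched to Macaca fascicularis entries at 0 mismatches, with 15 reads as the minimum; the smallest sum over the libraries was 15. The aligner, miRNA release, trimming and handling of multiply matching reads were not given in the sources used here. Names repeated with identical counts numbered 4, and whether the same reads were counted under both names was not tested. With 1 name of each such pair kept, the family's mean share of the listed counts was 0.644%. The authors' second table is a normalized signal from edgeR, per the file headers and the submitters' processing notes. It equals the raw count times 0.989, 0.951 and 1.06 in animals 1, 2 and 3, and was used as an alternative scale and for human names. These factors are, to rounding, the inverses of the TMM factors below, so they are not an independent choice of factors. A factor common to a library cannot change a share within it, so the family share of 0.642% was bound to stay the same on this scale. Further columns of per-sample values numbered 0.

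TMM factors (edgeR 4.0.16, R 4.3.3) were 1.01, 1.05 and 0.940, and DESeq2 1.42.0 size factors and library totals were alternatives. Tests and figures used SciPy 1.17.1 and Matplotlib 3.10.9 in Python 3.11.15. The chi-square test was tested on counts simulated with counting error and set changes only. Such counts have no spread between animals or preparations, so they cannot show how the test behaves under it. A pseudocount of 1 and a mean count of at least 10 were used. Named miRNAs were all members, their opposite arms, the other miRNAs of the 3 clusters, the miRNAs next to the top member in mean CPM and the 3 closest in pattern; none was left out. The members and lists were chosen with earlier results of these data known. Mature sequences and genome positions were not used here.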

Additional observations from a re-analysis of the deposited data

How the results depend on the processing

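Of 70 values recalculated for the main results, 0 reversed and 3 changed by over 1 SD of the animals (for counts of members, by over 1.5 times). Leaving out 1 of 3 animals always moves a mean by less than 1 SD. For shares and differences it could therefore never be marked as a change, and those unchanged marks show nothing on stability. Only the differences between neighbouring members have a sign, and the other values are shares or counts. These differences were positive in every animal, so leaving out an animal or lowering the pseudocount could not reverse them. The family share on the authors' signal could not change. The animal order of the family sum was not among these values. The share of miR-106b-5p in the family rose from 44.8% to 49.94% without miR-106a-5p, since a member is taken out of the sum. The number of members spanning more than 2-fold, 1 in all libraries, was 0 at a mean count of at least 100, a minimum that leaves out miR-93-5p, and from 0 to 1 when an animal was left out, 0 without animal 2. The SD of single members between animals moved by more than 1.5 times in 10 of 36 recalculations, 9 of them without an animal, and for miR-106b-5p it was 0.16 with library totals against 0.08. The alternative that leaves out names differing by 1 or 2 bases was not run, because it needs the mature sequences. Depth limits miR-93-5p and miR-20b-3p most. No comparison paired across groups was made, as there is only 1 group; the order of members was compared within animals.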

Other observations

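The 3p arms of the neighbouring miR-106b and miR-93 hairpins changed places between animals, a pattern picked after its values were seen. miR-106b-3p exceeded miR-93-3p 4.0-fold in animal 1 (interval of the count ratio 2.90 to 5.52) and 2.54-fold in animal 2 (2.05 to 3.16), and was 0.487 times miR-93-3p in animal 3 (0.354 to 0.669). The 5p arms of the same hairpins kept their order in all 3 animals.

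The authors' deposited table paired each of the 6 members with the human miRNA of the same name. It paired miR-19b with human miR-19a-3p, and let-7d with human let-7a-5p.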
